A study of Mus musculus with 6 samples.

Results

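The baseline described here is the transcriptome of adult wild-type (WT) mouse cardiomyocytes 4 h after they were plated. It was read from the 3 libraries that the labels give to WT cells, called e, f and g, out of 6 libraries in the series. The other 3, from mice with a gene trap in Uty, were not used. The WT animals were adult males of the isogenic strain C57BL/6.Y<129P2>, a C57BL/6 background that carries the Y chromosome of 129P2 mice. Cells were freed with collagenase type 2, sedimented while calcium was gradually given back, and plated on laminin. All 3 libraries share these steps, so no value below separates the heart cell in place from the cell after digestion, calcium restoration and plating. The isolation was done 3 times per strain. Tissue of origin is given as ventricles in the series text and as hearts elsewhere, and the RNA as total RNA in one label and cytoplasmic RNA in another.

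A ventricular cardiomyocyte is built around the sarcomere, in which myosin motors pull on actin filaments under the control of troponin and tropomyosin. Calcium enters through the L-type channel, triggers a larger release from the sarcoplasmic reticulum through the ryanodine receptor, and is returned by the SERCA pump, which phospholamban restrains. The work is paid for by densely packed mitochondria that burn mainly fatty acids. Many of these proteins come from small gene families whose members are divided between heart, skeletal muscle and other cells, so that the family member in use is itself a description of the cell.

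Reads mapped to genes numbered 38141650 in library e, 32397035 in f and 48044445 in g. Between 21588 and 22884 genes had at least 1 read, and 13479 to 14395 had at least 10. Every pair of libraries differed by more than counting noise, with chi-square values of 12.3 to 64.4 per degree of freedom over 10749 genes, so none was a second count of another. Across those genes, which are not independent replicates, log2 values of the library pairs correlated at Pearson's r of 0.994 to 0.996. Levels are given on a pair of scales. A normalized count is the number of reads divided by the size factor of the library and serves to compare libraries. TPM (transcripts per 1e6) is the number of reads per exon length as a share of the library and serves to compare genes. With 3 libraries of 1 group there was no contrast, and the smallest two-sided exact p that 3 libraries allow is 0.25, so the values are given as a description with no test.

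The label cardiomyocyte matched its markers. Myh6, the fast cardiac myosin heavy chain, stood at 360915, 356900 and 398946 normalized counts in e, f and g. Actc1, cardiac actin, stood at 262704, 258217 and 258416. Tnnt2, cardiac troponin T, had 133249, 121993 and 128863 normalized counts, Ryr2, the ryanodine receptor of the heart, had 100414, 97484 and 103062, and Atp2a2, the cardiac SERCA pump, had 461453, 429029 and 457753. The 12 cardiomyocyte markers together held 9.31% ± 0.17 (SD, n = 3) of nuclear reads. The 6 ventricular markers summed to 175416, 178896 and 186135 normalized counts, of which Myl2 gave 156341, 161314 and 168271 and Lbh 16033, 15061 and 15183. The 10 atrial markers summed to 1603, 1398 and 1440.1, led by the natriuretic peptide Nppa at 549 to 658. Myl7, the atrial regulatory light chain, was at 47.5 to 66.3 normalized counts. The Y-linked genes Ddx3y, at 2217 to 2368, and Uty, at 877 to 1093, were present in each library, whereas Xist had 0.771 to 3.43 normalized counts.

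Markers of other heart cells were present at far lower levels. The 12 endothelial markers, with the adhesion molecules Cdh5 and Pecam1 among them, summed to 19826, 22722 and 21459.5 normalized counts. The 10 smooth muscle and pericyte markers summed to 9478, 10063 and 9898, and Rgs5, a pericyte gene, made up most of this at 4786 to 6082. The 12 fibroblast markers summed to 6384, 9377 and 8313, with Gsn and the matrix proteoglycan Dcn in the lead. The 12 macrophage and myeloid markers summed to 386, 577 and 451. The 10 conduction markers gave 2917, 2843 and 2893, carried by the pacemaker channel Hcn4 and by Tbx3, while Isl1 had no read in e and f and Gjd3 had none in any library. The 10 lymphocyte markers came to 14.99 to 16.96, with Cd3d and Cd3e at 0 reads in each library. The 5 erythrocyte, 6 epicardial, 6 Schwann and neural, and 5 adipocyte markers reached at most 94.8, 276, 107 and 8.74 normalized counts, and Lep had 0 reads. A gene with 0 reads may still have had up to 3, which is 2.31 to 3.75 normalized counts depending on the library. In bulk RNA, fewer cells of a type and less RNA per cell cannot be told apart.

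**Figure D1:**
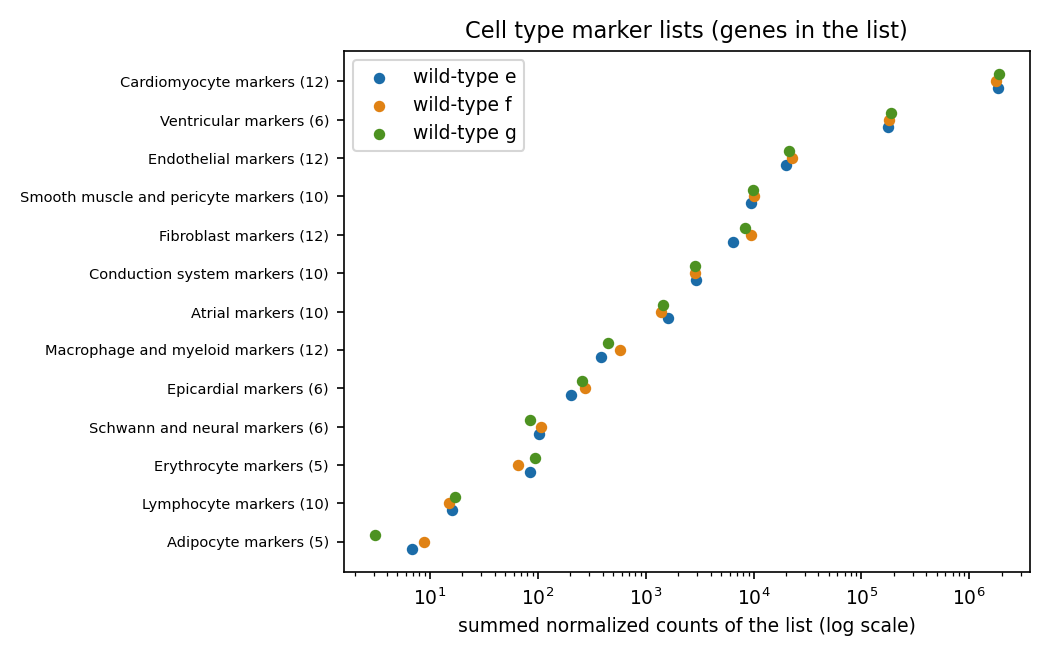
Summed normalized counts (log scale) of 13 cell type marker lists in WT libraries e, f and g, with the number of genes in each list in brackets. The cardiomyocyte list lies between 1771610 and 1869140, and the endothelial list, the highest of the lists for cells other than muscle, between 19826 and 22722.

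Of the reads assigned to genes, the mitochondrial genome gave more than the nucleus in e and f, and fewer in g. Several mitochondrial mRNAs share nearly all of their sequence with other genes, as described below. How reads with several matches were counted is not stated, so the shares hold for assigned reads only. The 37 mitochondrial genes held 54.7% of reads in e, 52.2% in f and 46.9% in g, a mean of 51.3% ± 4.0 (SD, n = 3). Nuclear protein-coding genes held 43.6%, 46.1% and 50.8%. The remaining classes were small in each library. Long non-coding genes held 1.37%, 1.33% and 1.91% of reads, mitochondrial rRNA 0.275%, 0.156% and 0.219%, mitochondrial tRNA 0.143%, 0.122% and 0.105%, and the class of other small structured RNAs, which is nearly all 7SK, 0.155%, 0.150% and 0.182%. Library e was highest for mitochondrial reads and g was lowest. With protein-coding genes of both genomes counted together, the share was 97.8% ± 0.36 (SD, n = 3), and within nuclear reads it was 96.1% ± 0.45. Because TPM is a share of the whole library, the lower mitochondrial share of g raises most nuclear TPM values in g, and TPM values of separate libraries below give the level of a gene within its library and not a comparison of libraries.

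**Figure D2:**
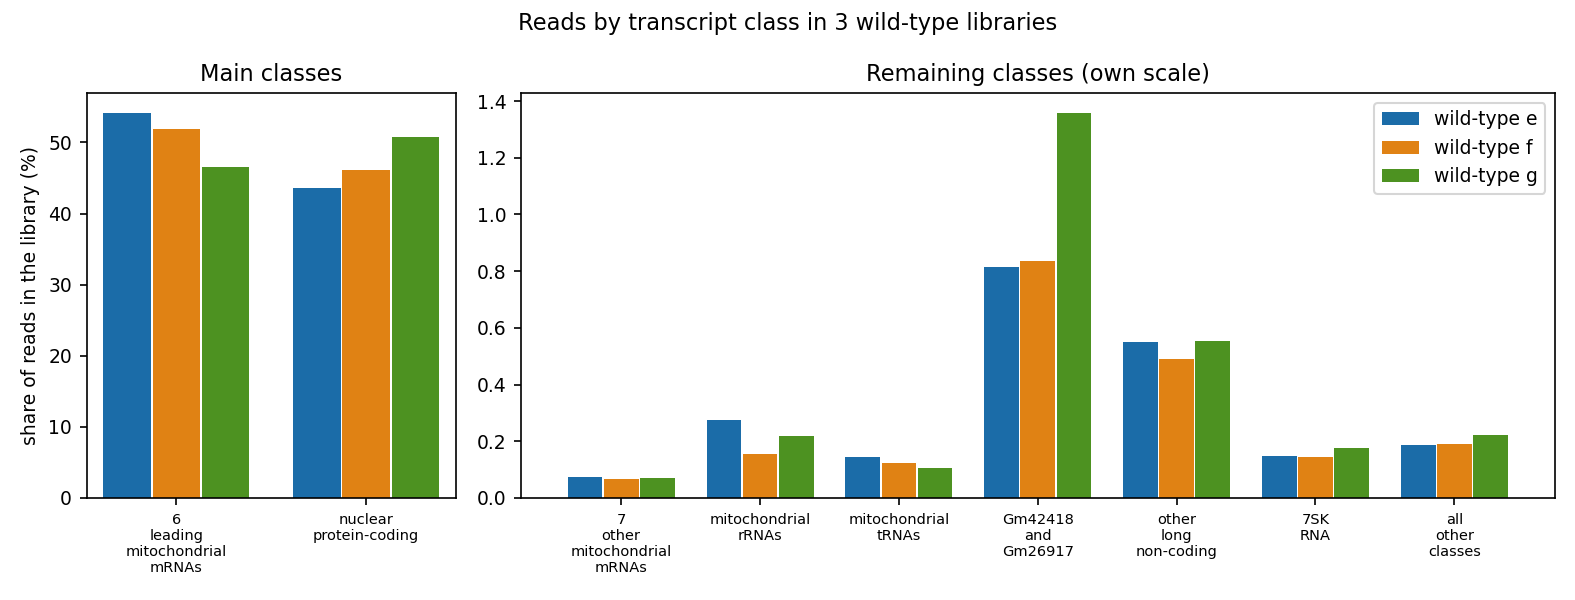
Share of reads (%) by transcript class in WT libraries e, f and g, with the 2 main classes on the left and the remaining classes on the right on their own scale. The 6 leading mitochondrial mRNAs fell from 54.2% in e to 46.5% in g, and Gm42418 with Gm26917 reached 1.36% in g against 0.816% and 0.835% in e and f.

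Of the 13 mRNAs that the mitochondrial genome encodes, 6 carried 50.9% ± 3.9 (SD, n = 3) of reads and the other 7 carried 0.0697% ± 0.0036. mt-Co1, the core subunit of cytochrome oxidase, was the highest at 18.6%, 18.6% and 17.2% of reads in e, f and g. mt-Nd5, mt-Nd1, mt-Nd2 and mt-Nd4, all subunits of complex I, had means of 8.33%, 7.30%, 5.75% and 4.30%. mt-Cytb, the mitochondrially encoded subunit of complex III, had a mean of 7.06%. Their order in reads was the same in the 3 libraries. Per exon length, the level of mt-Co1 was 216381 TPM ± 4800 (SD, n = 3), which was 1.54 times that of mt-Nd1 and 3.76 times that of mt-Nd4. Of the short stretches of sequence compared below, 51.1% of those of mt-Co1 and 62.2% of those of mt-Nd4 also occur in other genes, but none of mt-Nd1. The exon length makes no allowance for this, so these ratios hold for assigned reads only. How far shared sequence changes them was not tested.

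The other mitochondrial mRNAs were far lower. mt-Co2, another core subunit of the same oxidase, had 76.0, 68.2 and 67.1 TPM, and mt-Co3 had 64.2, 60.9 and 52.0. mt-Atp6 and mt-Atp8, the ATP synthase subunits whose reading frames overlap, had means of 48.5 and 41.5 TPM. mt-Nd4l had 41.5 TPM, mt-Nd3 had 864 and mt-Nd6, alone among the mRNAs in being encoded on the light strand, had 1614. The ratio of mt-Co1 to mt-Co2 was 3072 and that of mt-Co1 to mt-Atp8 was 5219.9. Mitochondrial mRNAs are cut from long primary transcripts that cover whole strands, and apart from mt-Nd6 these genes lie on the same strand as the 6 that led.

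These values have to be read beside the sequence itself, since the reads were 50 bases long. For each gene, every stretch of 50 bases of its annotated transcripts was looked up in the transcripts of all other genes. All stretches of mt-Co2 were found in another gene, as were 99.9% of those of mt-Co3, 99.5% of mt-Atp6, 98.8% of mt-Nd4l and 97.99% of mt-Nd3. For each of the 5, the gene with the most matches lies on the reverse strand of chromosome 1, in the same order as on the mitochondrial genome, which is the form of a nuclear copy of that stretch. In mt-Co2 this gene, Gm28661, held 632 of the 635 stretches, and Gm13341 on chromosome 2 held 224. Gm28661 matched mt-Co2 over 681 bases with 0 mismatches, Gm10925 matched mt-Atp6 over 678 bases with 0 mismatches, and Gm28437 matched mt-Co3 over 783 bases with 0 mismatches. To show what a 50-base read has to decide between, the middle of mt-Co2 (chrM:7328-7377, GRCm38, forward strand) is given with the same place in its copy Gm28661, followed by a stretch of mt-Co1 (chrM:6292-6341) and its copy Gm13340 on chromosome 2. Capitals mark the base that differs in the mt-Co1 pair, T26A counted from the 5′ end, and the mt-Co2 pair has no difference.
mt-Co2: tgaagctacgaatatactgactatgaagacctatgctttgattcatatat
Gm28661: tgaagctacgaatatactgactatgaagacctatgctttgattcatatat
mt-Co1: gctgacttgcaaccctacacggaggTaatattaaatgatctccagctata
Gm13340: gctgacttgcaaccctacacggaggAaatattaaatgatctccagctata

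The copy of mt-Co1 shown above was less exact. Gm13340 matched it with 37 mismatches over 1545 bases, an identity of 97.6%, and held 411 of its 1496 stretches. Gm29216 on chromosome 1 held more of them, 430, and its identity is not given here. In total, 51.1% of the stretches of mt-Co1 occurred in another gene. mt-Nd4 had 62.2% of its stretches in another gene and still held 4.30% of reads. Its copy on chromosome 1, Gm28439, matched it over 876 bases with 0 mismatches. mt-Nd2 and mt-Nd5 had 8.19% and 7.61% of their stretches in another gene. mt-Cytb, mt-Nd1 and mt-Nd6 had none. mt-Atp8 had none either and yet had only 230, 175 and 155 normalized counts. Gm28661 ends 233 bases from Gm10925 on chromosome 1, whereas mt-Co2 and mt-Atp6 are 230 bases apart on the mitochondrial genome, and mt-Atp8, 204 bases long, starts within that interval. The interval on chromosome 1 has no gene among those compared, so the count of shared stretches does not cover it. The copies had reads of their own. Gm28661 had 742, 588 and 501 normalized counts, below mt-Co2 at 1272, 1025 and 886 in each library. Gm10925, with 1053, 698 and 638, was near mt-Atp6 at 920.0, 717 and 558, and Gm10222, with 512, 559.6 and 325, was above mt-Nd4l at 365, 259.8 and 197. Gm13340, the copy of mt-Co1 on chromosome 2, had 5201, 4549 and 4198, and Gm29216 had 424, 316 and 260. How reads that match several places were counted is not stated in the labels or methods, and its part in the low values was not tested.

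**Figure D3:**
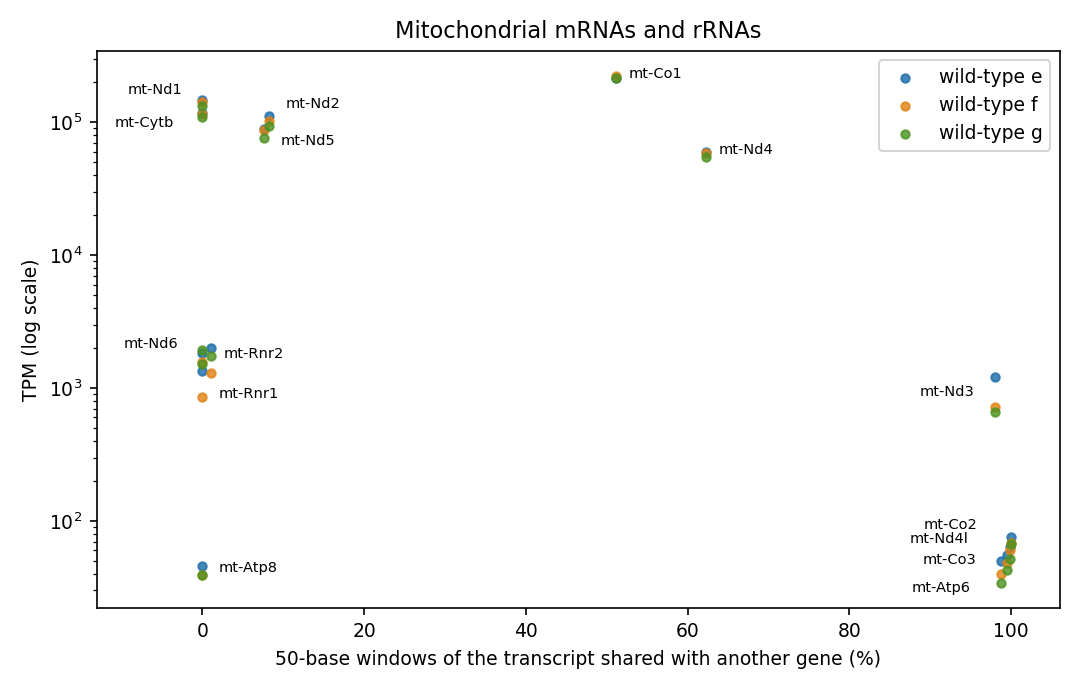
Level (TPM, log scale) of the 13 mitochondrial mRNAs and 2 rRNAs in WT libraries e, f and g against the share of 50-base stretches of the transcript that occur in another gene. The 5 genes with 97.99% or more of shared stretches had means of 41.5 to 864 TPM, and mt-Atp8, with no shared stretch, had 41.5.

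The 2 mitochondrial rRNAs were uneven among the libraries. The small rRNA mt-Rnr1 had 42752, 17932 and 27724 normalized counts and the large rRNA mt-Rnr2 had 77338, 45306 and 53438. Both were highest in e and lowest in f. Ribosomal RNA had been removed before library preparation in all 3, and any difference in that step was not tested. Of the 22 tRNA genes, mt-Tl1, which lies directly after mt-Rnr2 and before mt-Nd1, had 42266, 31509 and 24544 normalized counts, and mt-Tf, mt-Tk and mt-Td had 0 reads.

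Nuclear reads were concentrated in a small part of the genes. Counted from the most abundant downwards, 368 nuclear genes held 50% of nuclear reads, with 368, 380 and 354 in the separate libraries, and 4102 held 90%. The top 10 held 13.7% ± 0.59 (SD, n = 3) and the top 100 held 32.7% ± 0.62. Per exon length the concentration was stronger, with 197 genes at 50% of the nuclear level. Ttn, the giant spring of the sarcomere, was the most read nuclear gene at 511404, 565064 and 538171 normalized counts, or 2.75% ± 0.17 of nuclear reads. Its merged exons span 116825 bases, and per length it stood at 213 TPM, rank 147 among nuclear protein-coding genes. Ryr2 behaved alike, with rank 11 in reads and rank 204 in TPM. Of the 15 genes leading in TPM, 7 were also among the 15 leading in reads.

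Per exon length, Actc1 led the nuclear protein-coding genes in each library, at 6632, 7260.4 and 8277 TPM. Mb, the oxygen store myoglobin, was next in each at 3660 to 5381. Then came Myl2, the ventricular regulatory light chain, at 3837 TPM ± 602, phospholamban (Pln) at 3439 ± 159, the muscle subunit Cox6a2 of cytochrome oxidase at 3427 ± 252 and Atp2a2 at 3403 ± 434 (SD, n = 3). The order of Myl2, Pln and Atp2a2 changed between libraries and their levels lay within the spread. Myh6 and Fabp3, the fatty acid binding protein of heart, were ranks 7 and 8 in each library, at means of 2560 and 2203 TPM. The rest of the 15 were the small heat shock proteins Hspb7, Hspb6 and Cryab at 1152 to 1225 TPM, the essential light chain Myl3 at 1078, the metal-binding protein Mt1 at 1018, troponin C (Tnnc1) at 1014 and the glycolytic aldolase Aldoa at 1010.2. Of the 15, 12 were among the first 15 in each of the 3 libraries. Part of the sequence of many of them also occurs in other genes, most of all for Pln, with 56.2% of its 50-base stretches, Fabp3 with 37.3%, Mb with 24.9%, Myh6 with 20.2% and Cryab with 13.3%.

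The genes that led in reads but not in TPM had long merged exons, from 4237 bases in Atp5b to 116825 in Ttn. Merged exons add up those of all annotated transcripts of a gene, so this is not the length of a single mRNA. How far the choice of length changes this ranking was not tested. Lpl, which releases fatty acids from circulating lipoproteins, had 165099, 151174 and 159123 normalized counts over 10478 exonic bases. Tnnt2 and Tpm1, tropomyosin, had means of 760 and 855 TPM. Atp5b, the catalytic subunit of ATP synthase, had 853 TPM, the citric acid cycle enzyme Ogdh 620.1, and Xirp2, an actin-binding protein of the intercalated disc, 265.

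Since these few genes dominate the nuclear RNA, the stretch before their start was looked at for plain core and muscle motifs. RefSeq promoter sequences (GRCm38.p6, 250 bases before to 50 after the annotated start) were matched for 12 of the 15 leading genes by TPM and for 41 of the leading 50. The letters TATAAA on the strand of the gene occurred in 4 of the 12 (Actc1, Pln, Myh6 and Hspb6) and in 6 of the 41, which is 14.6%, against 9.48% of 16559 nuclear protein-coding genes with a promoter and 5.26% of the 8207 among them that averaged 50 or more normalized counts. On either strand the share was 17.1% of the 41 and 14.3% of all. The CArG box, the site read by serum response factor, occurred in 2 of the 12, Actc1 and Myl3, and in the same 2 of the 41 (4.88%), against 1.75% of all. The MEF2 motif occurred in 0 of the 12 and in 1 of the 41 (2.44%), Mybpc3, against 3.22% of all and 2.36% of the 8207. A match is a description of letters in this window and not a site in use. The stretches are shown for the highest actin and myosin genes and for Hspb6 and Myl3, with the motif in capitals. They lie at chr2:114052826-114052854 (Actc1, TATAAA), chr2:114052901-114052934 (Actc1, CArG), chr14:54966589-54966618 (Myh6), chr7:30553260-30553289 (Hspb6) and chr9:110763581-110763614 (Myl3, CArG). Actc1 and Myh6 lie on the reverse strand and the other genes on the forward strand. Counted from the annotated start, TATAAA begins at position 34 in Actc1, at position 2 in Myh6 and at position -29 in Hspb6, and the CArG box begins at -47 in Actc1 and at -85 in Myl3.
Actc1 first stretch: ccatcagagagcTATAAAgctgcgctcca
Actc1 upstream stretch: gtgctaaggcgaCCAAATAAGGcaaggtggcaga
Myh6 stretch: tatgggatgggaTATAAAggggctggagca
Hspb6 stretch: cacagggcacagTATAAAtcggagccagcg
Myl3 stretch: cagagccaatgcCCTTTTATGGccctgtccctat

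Outside the protein-coding class, 2 neighbouring genes led. Gm42418 had 209908, 191977 and 300399 normalized counts and Gm26917 had 145858, 145867 and 202872, so that g was highest for both. They lie beside each other on chromosome 17 (chr17:39846958-39848788 and chr17:39843013-39846341). Gm42418 overlaps Rn18s-rs5, an 18S ribosomal RNA pseudogene in RefSeq, by 1245 bases, and CT010467.1, the most read gene of the rRNA class at 9107, 9113 and 11644, lies over it on the opposite strand. Without those 2, long non-coding genes held 0.550%, 0.490% and 0.554% of reads. Malat1, a nuclear RNA of splicing bodies, led them at 131609, 96586 and 104406 normalized counts, and Neat1, the scaffold of paraspeckles, followed in the list of nuclear long non-coding RNAs at 12587, 9224 and 10253. Both were highest in e and lowest in f. Mhrt, the antisense partner of Myh7, had 392, 409.7 and 403, and Miat had 0 reads. Since the strand setting of the counting is not stated, reads of such antisense pairs cannot be told apart. Rn7sk, the 7SK RNA that holds back the elongation factor P-TEFb, had 64696, 58157 and 64789 normalized counts, and at 8707 TPM it was above Actc1 per length. The miRNA class was led by Gm23935 at 2278, 2694 and 5866, Mir6236 at 879, 897 and 1725 and Gm24187 at 77.7, 98.7 and 409, each highest in g. These genes are annotated as miRNA genes, and mature miRNAs are too short to be captured by this kind of library. Gm23935 and Gm24187 are 57 bases long, little longer than a read. All of the stretches of Gm23935 also occur in another gene, against none of those of Mir6236 and Gm24187. Whether the reads of the 3 genes come from miRNA precursors was not tested.

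Turning to paralogs, 91 families were followed, and the share of each member in the summed TPM of its family was taken in each library. In 37 families (40.7%) the same member held at least 90% in each of the 3 libraries. The leading member was the same in the 3 libraries in 86 families. The share moved little between libraries, with a median SD of 0.65 percentage points over families and a largest SD of 4.4. How far a single member led differed between the roles by which the families were grouped. The families were chosen with earlier results of these data known and differ in their number of members, and a dependence on role was not tested. At least 90% was reached in 15 of 18 contractile families, 5 of 10 calcium families, 5 of 16 channel families, 8 of 22 energy families, 1 of 9 signalling families and 3 of 16 families of regulators.

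Among contractile proteins the heart form was nearly exclusive. Troponin C was Tnnc1 to 99.99%, troponin I was Tnni3 to 99.96% and troponin T was Tnnt2 to 99.6%. Myh6 held 99.7%, 99.5% and 99.6% of muscle myosin heavy chain, with 2192, 2414 and 3074 TPM, against 3.54, 9.27 and 8.49 TPM of Myh7, the slow chain of the fetal rodent ventricle. The log2 ratio of Myh6 to Myh7 was 8.60 ± 0.63 (SD, n = 3). Myl2 held 94.0% of regulatory light chains, and the rest was mainly Myl12a, the light chain of non-muscle myosin, at 230.1 TPM. Myl3 held 98.2% of essential light chains. Actc1 held 97.0% of muscle actin, with 194 TPM of the skeletal actin Acta1 and 32.2 TPM of the smooth muscle actin Acta2. Mybpc3, Actn2, Myoz2, Des, Csrp3, Flnc and Tmod1 led their families at 92.6% to 99.98%. The exceptions were Fhl2 at 88.7%, the cytoplasmic actin Actb at 85.3% over Actg1 (37.4% of stretches in other genes), and the non-sarcomeric myosins, where Myh14 held 52.9% and Myh9 held 28.2%.

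In calcium handling, the release and uptake proteins were each of 1 kind. Ryr2 held 99.9% of ryanodine receptors, Atp2a2 99.97% of SERCA pumps, Pln 99.95% of SERCA micropeptides and the store protein Casq2 99.6% of calsequestrins. Slc8a1, the sodium-calcium exchanger of the heart membrane, held 98.4%. Sarcolipin (Sln), the regulator of the pump that is typical of atria, had 1.21 TPM against 3439 for Pln. Signal decoders, in contrast, were mixed. The 3 calcineurin A genes Ppp3cb, Ppp3ca and Ppp3cc had 14.9, 13.6 and 12.4 TPM. Of CaMKII, Camk2d held 43.8% and Camk2a 30.7%. IP3 receptors were low, with Itpr1 at 1.95 and Itpr2 at 1.37 TPM.

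Ion channels held both patterns. Kcnip2, the partner of the transient outward channel, held 99.8% of its family, Cacna2d1 98.2% of the alpha2-delta subunits and the KATP pore Kcnj11 96.8%. The L-type channel Cacna1c held 91.0%, 89.8% and 89.4%, which placed it on both sides of the 90% threshold. Gja1, the main connexin of the ventricle, held 83.9%. Kir2 channels were divided, with Kcnj2 at 55.9% and Kcnj12 at 42.2%. The pacemaker channels Hcn4 and Hcn2 had 10.53 and 9.72 TPM, and Hcn2 was the higher in g. The T-type channels Cacna1h and Cacna1g had 1.31 and 1.21 TPM, with Cacna1g higher in g, and without f the mean order reversed to a log2 ratio of -0.03.

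In energy metabolism the leading member was often, though not always, the muscle or heart form, and another member was present in many families. Cox6a2 held 99.0% over Cox6a1, Cox4i1 99.9% over Cox4i2 and Fabp3 98.8% over Fabp4. Aldoa, Pgam2 and Eno3 held 99.6%, 99.2% and 97.5% of aldolase, phosphoglycerate mutase and enolase. Ldhb, the heart form of lactate dehydrogenase, held 85.9%, and Ldha 14.1%. The insulin-responsive transporter Slc2a4 held 88.3% of glucose transporters and Slc2a1 11.3%. Mitochondrial creatine kinase Ckmt2 held 62.3% against 37.2% for the cytosolic Ckm, and their log2 ratio of 0.74 ± 0.01 (SD, n = 3) was among the steadiest. Cox7a1 held 79.7% and Cox8b 65.8% of their families. Pdk4, the pyruvate dehydrogenase kinase raised in fasting and fat use, had 552 TPM ± 45.5 (SD, n = 3) and held 62.8% over Pdk2. In normalized counts it was highest in e, at 49277, 38614 and 39553. The 5 perilipins, which coat lipid droplets, were divided, led by Plin3 and Plin4 at 32.6 and 31.0 TPM. Cpt1b, the muscle carnitine palmitoyltransferase, had 13.0 TPM, and 78.6% of its 50-base stretches also belong to Gm44502, another gene annotated over the same stretch of chromosome 15. Its 985, 909 and 971 normalized counts are therefore uncertain.

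Signalling families and regulators were mostly shared between members. Among natriuretic peptides Nppb held 90.9%, at 323 TPM against 31.7 for Nppa, of which 53.4% of stretches occur in another gene. Pde3a held 92.9% of its family and Adcy6 46.0% of adenylyl cyclases. Among transcription factors Gata4 held 69.0% over Gata6, Tbx20 and Tbx5 held 44.9% and 37.6%, Mef2d and Mef2a held 57.3% and 34.0%, and Tead1 held 96.6%. Both forms of translation factor eEF1A were present, with Eef1a2, the form of muscle and neurons, at 589 TPM and Eef1a1 at 146. Rpl3l, the striated muscle version of ribosomal protein L3, held 92.2% at 119 TPM against 10.2 for Rpl3. For Eef1a1 and Rpl3, 40.4% and 35.0% of stretches occur in other genes, so their levels may be counted low. Hspb7, Hspb6 and Cryab held 28.0%, 27.4% and 26.2% of small heat shock proteins and were not separated by the spread.

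**Figure D4:**
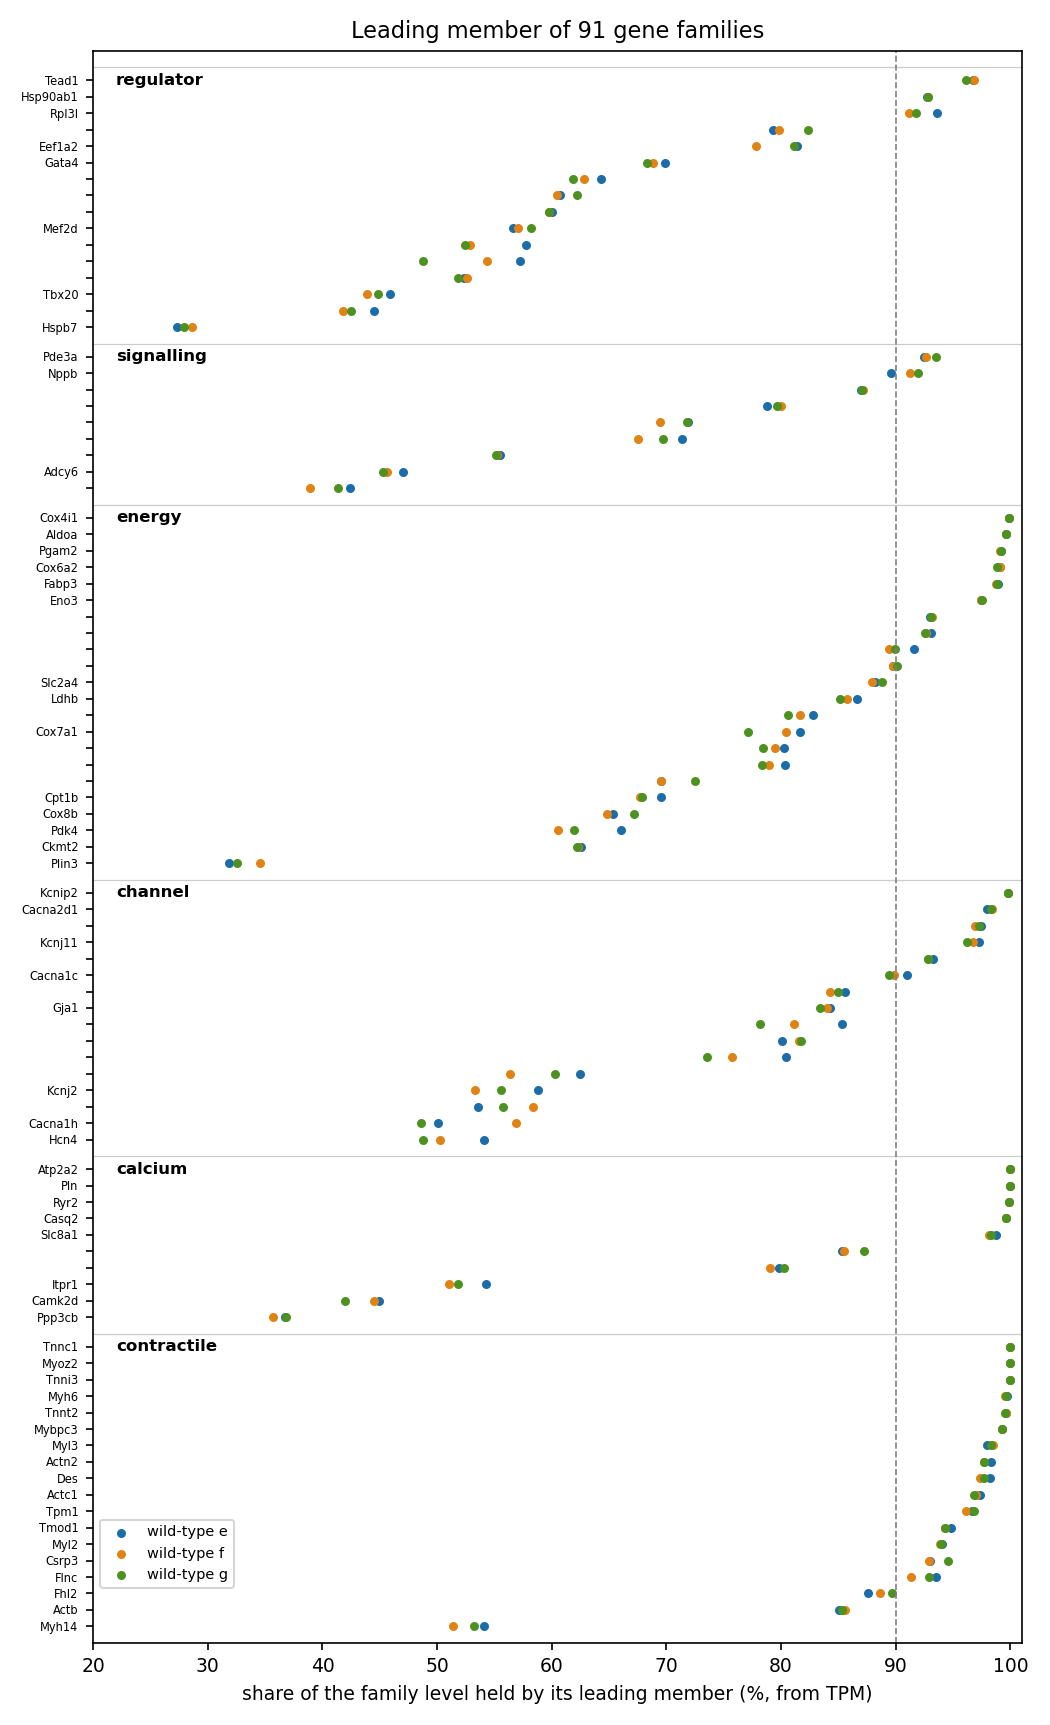
Share (%) of the summed TPM of 91 gene families that the leading member holds in WT libraries e, f and g, grouped by role, with the leading members that the text describes named and the 90% threshold as a dashed line. In 37 families all 3 points lie at or above 90%, 15 of them contractile, and in 5 the leading member changed between libraries.

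Functional lists gave the same profile by pathway. The 26 sarcomere genes held 11.05% ± 0.34 (SD, n = 3) of nuclear reads, the 20 calcium cycling genes 4.59% ± 0.11, the 23 genes of fatty acid use 2.66% ± 0.10, the 18 citric acid cycle genes 2.06% ± 0.02 and the 19 glycolytic genes 1.17% ± 0.03. Median levels ran from 515 TPM for the sarcomere to 209.9 for the citric acid cycle, 146 for fatty acid use, 94.6 for glycolysis and 52.7 for calcium cycling. Fatty acid entry and oxidation were led by Fabp3, Lpl, the transporter Cd36 (655 TPM) and the dehydrogenase Acadl (659 TPM). Idh2 and Ogdh led the citric acid cycle at 781 and 620.1 TPM. A pair of genes on the calcium list were near 0, Fkbp1b at 3.75 to 8.48 and Jsrp1 at 2.29 to 6.17 normalized counts.

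The cells also carried transcripts that respond to stress and handling. The 30 immediate early genes summed to 58750.4, 62600 and 62878 normalized counts. Egr1 was even at 8961, 8992 and 8910.4, Fosl2 had 7680.2, 8564 and 8084, Atf3 had 4622, 4669 and 4687, and Socs3 had 3823, 4264 and 4358. Fos itself was at 1678 to 1742. The 15 heat shock chaperones held 0.777% of nuclear reads, led by Cryab and Hsp90ab1, and the inducible Hspa1a was low at 488 to 565 normalized counts. The metallothionein and oxidative stress list was led by Mt1, at 29241, 28317 and 25552. Of the hypoxia-response genes, Vegfa (8957, 8953 and 8906) and Pdk1 led, while Car9 had 3.08 to 6.25. In the fetal gene list, Xirp2 and Ankrd1, a stretch-responsive nuclear protein, led at 66896 to 72784 and 50055 to 54934, whereas Tnni1 had 2.498 to 3.85. No sample of uncultured cells was in the WT group, so a change caused by isolation or culture could not be measured. The 12 cell cycle genes summed to 679, 826 and 839, of which Cenpf made up most, and Mki67 had 27.4, 74.9 and 63.2.

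The libraries were close to each other. Over 10749 genes that averaged 50 or more normalized counts, the median coefficient of variation (CV) was 6.68% as measured and 4.31% once the counting error was removed. For 3209 genes the spread was no larger than counting error. A CV of 25% or more was found for 149 genes, 1.39% of those examined, and 114 of the 149 had a mean under 200. This is a rule of size and not a test, and with only a pair of libraries it gave 252 genes without f and 316 without g. With scaling by total reads, in which the mitochondrial share counts, it gave 306. The mitochondrial genome was the exception, with 8 of 27 examined genes (29.6%) at a CV of 25% or more and a median of 19.3%. Among genes with a mean of at least 1000, 482 of 3221 with a plain symbol had no spread beyond counting error. The smallest CVs as measured, 0.137% to 0.319%, belonged to Slf2, Zc3h7b, Exoc4, Metap2, Prpf19, Tcp11l2, Kpnb1, Mia2, Spag9 and Alkbh5. Each of them had a CV of 0 once counting error was removed, so they cannot be ranked as steadier than the rest of the 482.

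The least even genes with a plain symbol were mt-Tl2, mt-Nd3, Arhgdib, Mki67, mt-Rnr1, Tlr2, Mir6236, Herc6, Myh7 and Lpar6, with CVs of 36.2% to 49.3%. Of the 149 genes, library e was lowest for 79 and f was highest for 70. Over all 10749 examined genes, e was lowest for 3566 (33.2%) and f was highest for 3083 (28.7%). Myh7 was the only one of the 26 sarcomere genes among them, at 746, 1756 and 1412 normalized counts, so e was below f and g. Tlr2, a receptor of innate immunity, had 72.0, 175 and 116, and Cxcl9, an interferon-induced chemokine, had 136, 289 and 212. Acta2, the smooth muscle actin, ran the other way at 2053, 1003 and 1590.4, although e was lowest for 7 of the 8 examined smooth muscle and pericyte markers, against 33.2% of all examined genes.

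**Figure D5:**
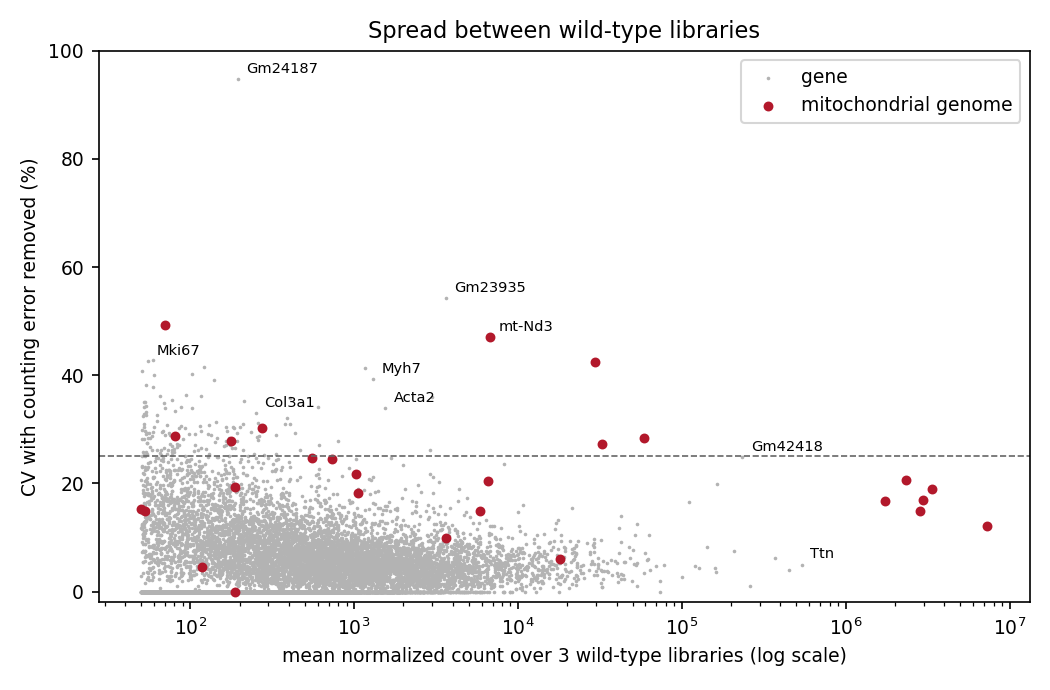
CV (%) over WT libraries e, f and g with counting error removed, against mean normalized count (log scale), for 10749 genes with a mean of at least 50. Red points are genes of the mitochondrial genome and the dashed line is 25%, which 149 genes reach or pass.

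Genes of several lists moved together between libraries. Library f was highest for 11 of 11 examined fibroblast markers, against 28.7% of all examined genes, and e was lowest for 10 of the 11, against 33.2%. Col3a1, a fibrillar collagen, had 166, 335 and 253 normalized counts, Col1a2 had 163, 309 and 304, and Dcn had 2118, 3066 and 2532. Library f was also highest for 13 of 13 examined inflammatory genes (17 listed) and 4 of 4 examined myeloid markers (12 listed), against the same 28.7%. The filter was the mean over the same 3 libraries, so a gene near 50 could pass it through its value in f. Icam1, an adhesion molecule, had 6144, 10005 and 8533, Cxcl1 had 429, 758 and 639.9, and Ccl2 had 409, 568 and 510. Of the endothelial markers, e was lowest for 10 of 12, against 33.2% of all examined genes. The summed fibroblast level of f was 1.47 times that of e and the inflammatory level 1.49 times. Whether the amount of non-muscle cells had a part in the inflammatory values was not tested. On the muscle side the lists differed. For 26 sarcomere genes, e was lowest in 14, against 33.2% of all examined genes. It was highest in 9 (34.6%), near the 38.2% of all examined genes, while g was highest in 13 (50%), against 33.1%. Among the 12 cardiomyocyte markers, e was highest for 5 (41.7%), also near its 38.2%, and g for 7 (58.3%). In contrast, e was highest for 14 of 18 examined calcium cycling genes and 16 of 23 fatty acid genes, against 38.2% of all examined genes, with Cd36 at 57095, 50991 and 46313. With scaling by nuclear reads, TMM or upper quartile, e was highest for 13, 13 and 15 of the 18 and for 16, 14 and 18 of the 23. With total reads as the scale, which raises the median gene by 0.23 (log2) in g over e, library e was highest for 1 of the 18 and 2 of the 23, near its 7.02% of all genes. On that scale g was highest for 25 of the 26 sarcomere genes and 11 of the 12 cardiomyocyte markers, against 75.3% of all genes. With the size factors of the authors, g was highest for 16 of 19 glycolytic genes, against 33.1% of all, with Aldoa, at 66215, 61211 and 64303, among the exceptions. With scaling by total reads, f was still highest for 7 of the 11 fibroblast and 10 of the 13 inflammatory genes, against 17.6% of all genes, and e was lowest for all 11 and all 13, against 71.7% of all genes. With 1 library per isolation, the isolation and the library cannot be told apart.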

How the data were processed

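RNA of cultured cardiomyocytes was depleted of ribosomal RNA, made into stranded libraries and sequenced as single reads of 50 bases. Per the labels and methods, the authors used CASAVA 1.4, STAR 2.5.1b on GRCm38, featureCounts 1.6.0 and DESeq2 1.22.2. The deposited table holds, for each gene, the normalized count of each library, a signal in which the authors divided reads by a size factor. Settings for strand and for reads with several matches are not stated in the labels or methods. The table also holds the authors' own comparison (mean level, fold change, its error, test statistic and p-values), which was not used, nor were the columns of the gene-trap libraries.

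Whole reads were recovered by dividing each column by its smallest value above 0. All values came out whole within a tolerance of 0.001. Of 54232 entries, 123 without a gene name (0.00310% to 0.00342% of reads) were left out. TPM was computed from reads and merged exon length (GENCODE M21) over all genes, the mitochondrial ones included. Shared stretches were counted among GENCODE M21 transcripts in windows of 50 bases. The CV was taken over the 3 libraries for genes averaging 50 or more normalized counts, after subtracting the counting variance, and was checked on simulated data. Python 3.11.15, pandas 2.3.3, numpy 2.4.6, scipy 1.17.1 and matplotlib 3.10.9 were used.

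The 3 libraries come from separate isolations and differed in depth from 32397035 to 48044445 reads. Counting limits cover counting error only. Families (91), lists (27) and members were chosen with earlier results of these data known. Genes were named by rule, namely the 15 highest nuclear protein-coding genes by TPM and by reads, the 3 highest of each other class, the leading and next member of each family, up to 4 leading members of each list with any at 0, and the 10 largest and 10 smallest CVs. Some families and genes that the rule names are not reported here. Other genes named in the text, such as Fos, Hspa1a, Car9, Tnni1, Myl7, Ccl2 and Cxcl9, were chosen after their values were seen. Alternatives were other lengths, scalings, filters, thresholds and pseudocounts, and leaving out each library.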

Additional observations from a re-analysis of the deposited data

How the results depend on the processing

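Without 1 library, the mitochondrial share of reads ranged from 49.6% to 53.4%, the protein-coding share from 97.6% to 97.97%, the number of nuclear genes at 50% of nuclear reads from 362 to 375, and the families with a member at 90% or more from 37 to 38. The number of genes with a CV of 25% or more ranged from 139 to 316 and the median CV from 1.67% to 3.65%, with 2 libraries in place of 3 in each case. Per exon length the mitochondrial share was 75.1%, the protein-coding share 93.6% and the genes at 50% numbered 197. Without the mitochondrial genome the protein-coding share was 96.1%. A family threshold of 75% gave 59 families, and the other lengths, levels and thresholds gave 27 to 41, including a pseudocount of 1 TPM with 35. Genes with a CV of 25% or more numbered 306 with scaling by total reads, 761 with a mean of at least 10, 35 with a mean of at least 200, 4385 with no filter and 226 as the SD of log2(value + 1), against 148 with TMM and 145 with upper quartile scaling. The median CV was 8.26% with total reads, 6.68% with counting error kept and 0% with no filter, where many genes have under 10 reads. Which gene leads a family depended on its length in some. With the longest transcript as length the log2 ratio was -0.65 for Ppara over Ppard, -0.50 for Mef2d over Mef2a, -0.18 for Hspb7 over Hspb6 and -0.040 for Mbnl2 over Mbnl1. With windows found in no other gene as length, an alternative chosen after seeing the data, it was -0.073 for Plin3 over Plin4. Leaving out 1 library, Cacna1h over Cacna1g ranged from -0.026 (without f) to 0.214 and Hspb7 over Hspb6 from -0.024 (without g) to 0.069. Of 91 leading pairs, 33 moved by less than the spread with the longest transcript and 61 with such windows, and the cause of the other shifts is the length itself. Scaling of the list sums by nuclear reads gave 1.502 for fibroblast and 1.53 for inflammatory genes in f over e. Windows unique in the genome were not run, since no genome sequence was used here. No paired analysis was possible because the libraries form 1 group and no test was made. Depth limits genes at 0 reads, where up to 3 reads per library remain possible.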

Other observations

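Nuclear subunits of the respiratory chain, a grouping made after the values were seen, were present at high levels alongside the mitochondrial mRNAs. The 9 genes of complex III had a median of 274 TPM, led by Uqcrb at 697. The 18 genes of ATP synthase had a median of 148, led by Atp5a1 at 931 and the catalytic subunit Atp5b at 853. The 37 nuclear Nduf genes of complex I had a median of 139 TPM, from 7.37 to 529, with Ndufa4, now counted with cytochrome oxidase, at the top. None of the 37 Nduf, 9 complex III and 17 ATP synthase genes examined had a CV of 25% or more, a share near the 1.39% of all examined genes.

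Cytosolic ribosomal proteins were lower. The 83 genes had a median of 33.3 TPM and held 0.715% ± 0.032 (SD, n = 3) of nuclear reads, less than the 1.02% of the Nduf genes. Rps29 was the highest at 309 TPM. A median of 23.5% of their 50-base stretches occur in other genes, against 2.67% for the Nduf genes, and the part of this in their low level was not tested.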
